A study of Homo sapiens with 10 samples.

Results

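The genes described here are 32 DNA repair genes, measured as mRNA in WM164, an established human melanoma cell line. They were taken from the table by name, as entries whose gene name is, or whose merged names include, 1 of the 32 symbols, and all 32 were found among 54826 entries. By role, 13 belong to nucleotide excision repair, 8 to base excision repair, 2 to mismatch repair and 8 to the sensing and repair of double-strand breaks, and 1, POLH, copies damaged DNA. In the cells labelled VDR-KD the vitamin D receptor, VDR, was targeted (GEO's labels say knockout, the study says knocked down). The cells labelled VDR-WT, against which they were set, had received a scrambled infection. Each genotype was treated for 24 h, in charcoal-treated serum, with 100 nM of 1,25(OH)2D3 or 1,20(OH)2D3, of 25(OH)D3, or else of 20(OH)D3, or with 0.1% ethanol as the vehicle. That gave 10 libraries, 1 for each genotype and treatment, so no condition had a replicate, and n = 5 below means 5 treatments of 1 genotype. The protocol speaks of triplicates, but the labels name no separate cultures, infections or clones, so p-values cover only how much these 10 libraries varied, which could be technical variation.

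The receptor's own mRNA ran against the labels. VDR was 12.1, 13.2, 11.96, 14.8 and 13.6 FPKM in the libraries labelled VDR-KD (in the order 1,25(OH)2D3, 1,20(OH)2D3, then 25(OH)D3 and 20(OH)D3, then ethanol, used throughout), against 7.55, 6.75, 9.03, 5.54 and 9.63 FPKM in those labelled VDR-WT. By limma the log2 fold change was 0.78, higher in the libraries labelled VDR-KD (adjusted p = 0.0060). Every direction between genotypes given below therefore follows the labels, and an effect of the receptor cannot be told apart from other differences between the cells.

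DNA repair works as a set of parallel pathways. Nucleotide excision repair cuts out the bulky lesions that ultraviolet light makes between neighboring pyrimidines, base excision repair replaces single damaged bases, mismatch repair corrects copying errors, and broken DNA ends are either joined directly or repaired from a sister copy. In pigment cells the first of these is best known, since inherited loss of its XP genes causes xeroderma pigmentosum, with a very high rate of skin cancer and melanoma.

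Values are FPKM, fragment counts scaled to transcript length and to library size, so they can be compared between genes, and differences are on the scale of log2 of FPKM plus 0.1. Summed FPKM ran from 577696 to 651658 per library. Of 8 melanocyte markers, 7 reached a mean of 1 FPKM (summed 5760 to 8390 FPKM in the libraries labelled VDR-KD and 6340 to 9320 FPKM in those labelled VDR-WT). None of 3 endothelial or 4 leukocyte markers did, against 1 of 4 keratinocyte markers (summed 5.49 to 11.6 FPKM labelled VDR-KD and 8.83 to 11.7 FPKM labelled VDR-WT) and 2 of 4 fibroblast markers (94.8 to 134 FPKM labelled VDR-KD and 75.3 to 100.0 FPKM labelled VDR-WT). KRT5 and KRT14 of keratinocytes and CD3E of leukocytes were at 0 in all 10 libraries, and summed levels were at most 0.792 FPKM for the endothelial and 0.528 FPKM for the leukocyte list. Between genotypes, the melanocyte genes TYR (log2 fold change -0.49), PMEL (-0.25) and MITF (-0.16) and the fibroblast gene DCN (-1.20) fell, and LUM rose (0.35). Their part in the results was not tested. CYP24A1, the vitamin D 24-hydroxylase and classical VDR target, was 77.3 FPKM with 1,25(OH)2D3 in the library labelled VDR-KD and 56.8 FPKM in that labelled VDR-WT, and at most 0.505 FPKM in the other 8. Heat shock transcripts varied widely: the inducible chaperone HSPA1A was 9.57, 16.6, 165, 123 and 123 FPKM in the libraries labelled VDR-KD, against 6.65, 28.7, 71.1, 11.2 and 42.1 FPKM in those labelled VDR-WT. Results are also given without 2 libraries doubted for their low heat shock genes, 1,20(OH)2D3 labelled VDR-KD and 20(OH)D3 labelled VDR-WT, called the 2 low heat shock libraries below, although HSPA1A was lower still with 1,25(OH)2D3 in both genotypes.

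All 32 genes were expressed, at 1 FPKM or more in each of the 10 libraries. Mean levels over the 10 libraries spanned 4.39 FPKM for ERCC4 to 412 FPKM for XRCC6, with a median of 23.3 FPKM, against a median of 10.2 FPKM over the 14689 genes tested. The 3 genes above 100 FPKM all belong to direct end joining and form 1 holoenzyme: XRCC6 and XRCC5 (258 FPKM), which encode the 2 subunits of the Ku ring that slides onto a broken end, and PRKDC (121 FPKM), the catalytic subunit of the DNA-dependent protein kinase that Ku recruits. LIG4, the ligase that seals the joined ends, stood near the other end of the order at 5.17 FPKM.

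PARP1, which senses single-strand breaks, came next at 97.6 FPKM, followed by DDB1 (80.7 FPKM), the adaptor of the ubiquitin ligase that marks ultraviolet lesions, by APEX1 (76.4 FPKM), the nuclease that cuts abasic sites, and by RAD23B (72.8 FPKM), the partner that stabilizes XPC. The 8 genes below 10 FPKM were ERCC2, OGG1, ERCC6, POLH, ERCC8, XPA, LIG4 and ERCC4, 5 of them from nucleotide excision repair. Median levels were 41.8 FPKM for double-strand break repair, 31.1 FPKM for the 2 mismatch repair genes, 23.3 FPKM for base excision repair and 15.2 FPKM for nucleotide excision repair. Neighbors in the order mostly overlapped: APEX1 ran from 66.5 to 84.3 FPKM over the 10 libraries and RAD23B from 65.9 to 80.6 FPKM. Entries of ERCC5, ERCC6, ERCC8, XRCC1 and BRCA1 are merged with another gene name, so these 5 values are shared with a neighbor. By annotated coordinates, 13 of the 32 genes overlap another protein-coding gene. They are XPC, DDB1, ERCC1, ERCC2, ERCC5, OGG1, MUTYH, APEX1, XRCC1, LIG3, MSH6, ATM and POLH. The strand setting is not known, so reads from the overlapping stretches cannot be assigned to a given gene. This limit holds for all values of these genes below.

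**Figure D1:**
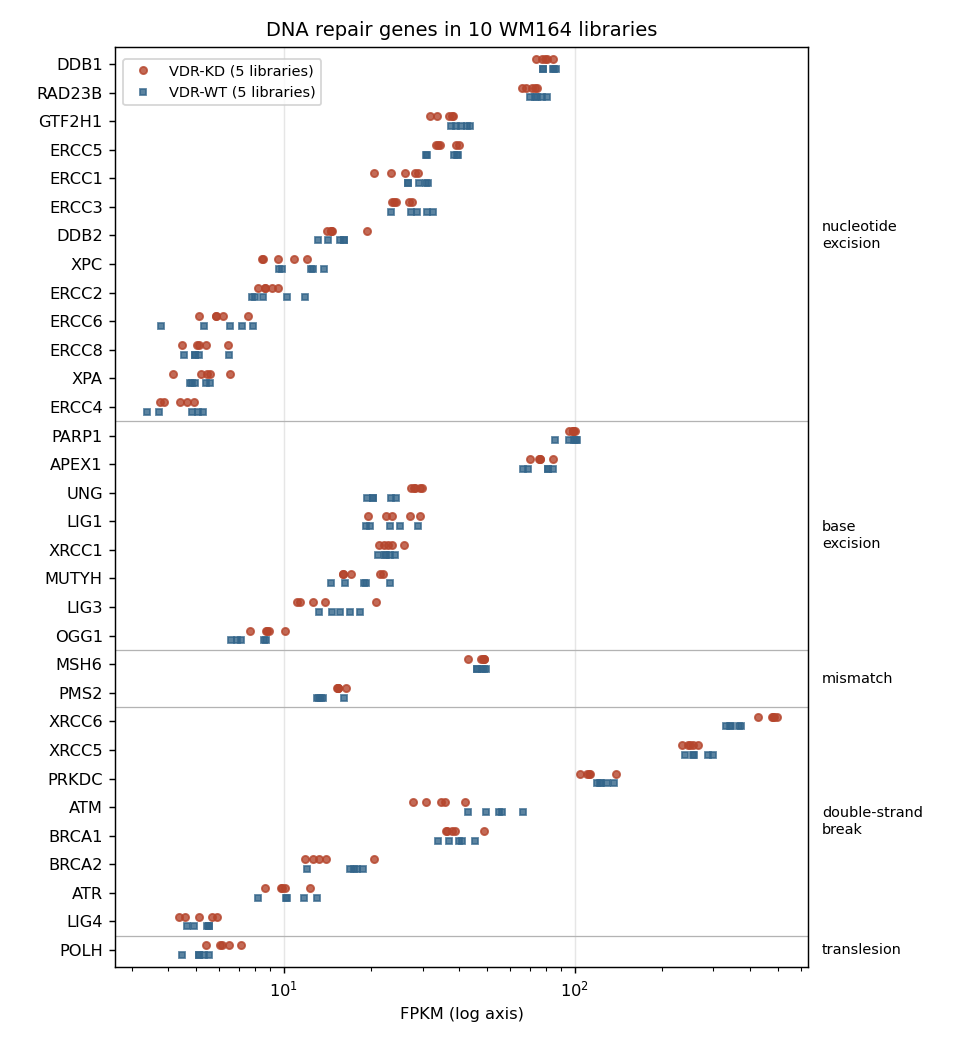
FPKM of the 32 DNA repair genes on a log axis, grouped by pathway and ordered by mean level; each point is 1 library, circles labelled VDR-KD (5 treatments) and squares labelled VDR-WT (5 treatments). Levels span 4.39 FPKM (ERCC4, mean) to 412 FPKM (XRCC6, mean), and the circles and squares overlap for all genes except UNG, ATM and XRCC6.

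The first comparison asks how repair gene expression differed between the genotypes over the 5 treatments. In the libraries labelled VDR-KD, XRCC6 and the uracil glycosylase gene UNG were higher, at 134% and 133% of the mean labelled VDR-WT, and ATM, the kinase that signals double-strand breaks, was lower, at 63.4%. GTF2H1, a subunit of the repair and transcription factor TFIIH, was lower by a small amount, at 87.6%. Of the XP genes, none passed the test, although ERCC3 (log2 fold change -0.17) and POLH (0.28) had an unadjusted p under 0.05. Among the other genes that did not pass, ERCC1 and PMS2 did too. By limma with Benjamini-Hochberg adjustment over the 14689 genes, 2 of 32 rose and 2 fell, where 13.1% of all genes tested rose, 9.68% fell and 22.8% did either. Values of the genotypes did not overlap for 3 of 32 (UNG, ATM and XRCC6), where 14.6% of all genes tested did not. The median log2 fold change of the 32 was -0.0045, with 16 above 0 and 16 below, against 0.017 over all genes tested. All 32 intervals (95%) lay within 1 log2 unit of 0, and the outermost bound was that of ATM, at -0.85.

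**Figure D2:**
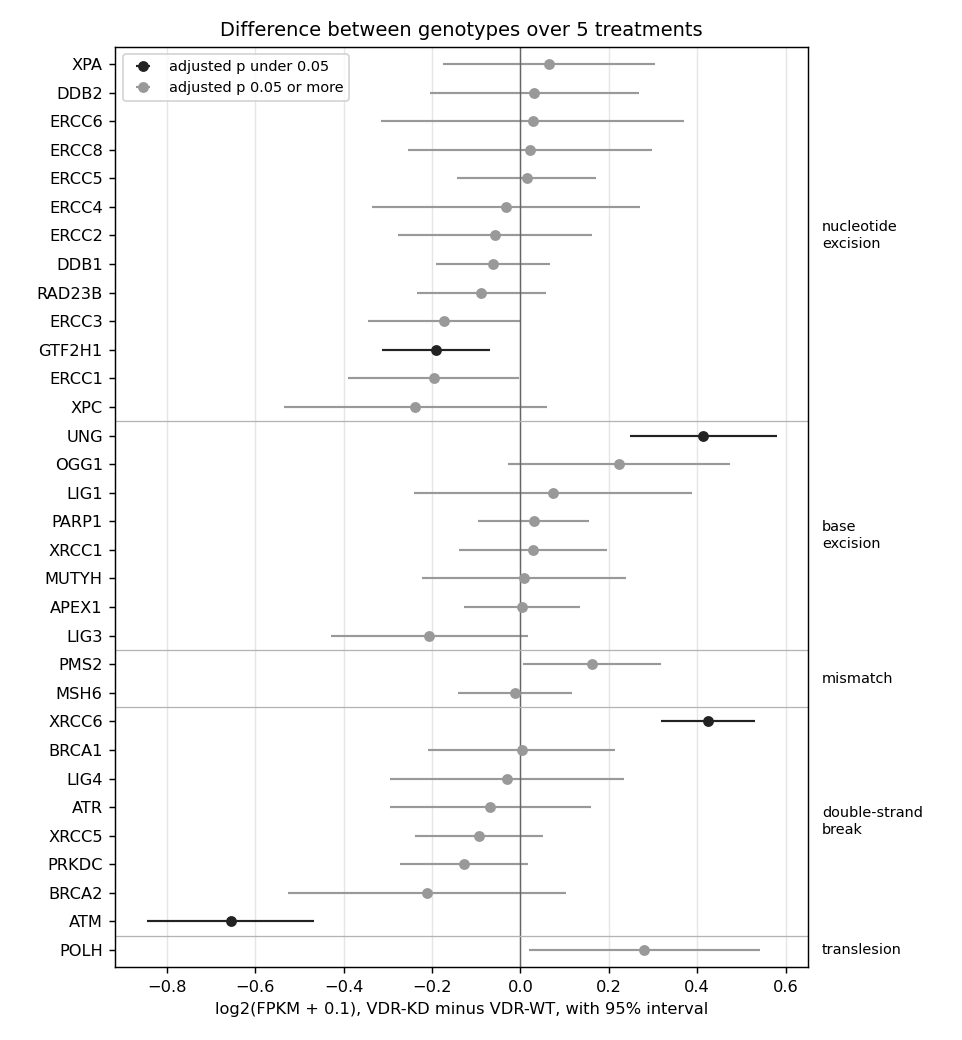
Difference in log2 of FPKM plus 0.1, libraries labelled VDR-KD minus those labelled VDR-WT, for each of the 32 genes with its 95% interval from limma over 5 treatments; black marks an adjusted p under 0.05. UNG and XRCC6 lie to the right of 0 at 0.41 and 0.42, ATM to the left at -0.66 and GTF2H1 at -0.19, and the other 28 genes are grey.

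Among the genes of double-strand break repair, ATM showed the largest difference of all 32. It encodes the kinase that the MRE11-RAD50-NBN complex activates at broken ends and that then phosphorylates p53, CHEK2 and histone H2AX. ATM was 35.9, 34.8, 27.8, 30.9 and 41.8 FPKM in the libraries labelled VDR-KD, against 54.9, 49.5, 56.2, 43.0 and 66.5 FPKM in those labelled VDR-WT. It was lower in all 5 treatments, and the highest value labelled VDR-KD lay just under the lowest labelled VDR-WT. Means were 34.2 ± 5.34 FPKM and 54.0 ± 8.71 FPKM (labelled VDR-KD and labelled VDR-WT, SD, n = 5 each), a log2 fold change of -0.66 (SE 0.083, adjusted p = 0.0012 from limma). Over the 12 alternatives of the processing the log2 fold change lay between -0.76 and -0.57, and the adjusted p stayed between 0.00046 and 0.032.

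On GRCh38, ATM lies on chromosome 11 from 108222484 to 108369102 (GENCODE 29, forward strand), and it overlaps 2 protein-coding genes, NPAT at its start and C11orf65 over 60584 bases. NPAT, a coactivator of histone genes that is transcribed away from ATM, fell as well, with 16.0 ± 2.13 FPKM labelled VDR-KD against 22.3 ± 2.34 FPKM labelled VDR-WT (SD, n = 5 each, log2 fold change -0.47, adjusted p = 0.016 from limma). The ratio of ATM to NPAT was 2.18 ± 0.523 labelled VDR-KD and 2.44 ± 0.366 labelled VDR-WT (SD, n = 5 each), a difference smaller than either spread. NPAT was looked at after ATM had been called. No source used here says whether reads were counted by strand, so reads from overlapping stretches cannot be assigned to 1 gene.

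XRCC6 encodes Ku70, a subunit of the Ku ring. Its mRNA was 479, 494, 478, 484 and 425 FPKM in the libraries labelled VDR-KD, against 343, 374, 330.1, 367 and 345 FPKM in those labelled VDR-WT. The lowest value labelled VDR-KD, with ethanol, was above the highest labelled VDR-WT. The means were 472 ± 27.0 FPKM labelled VDR-KD and 352 ± 18.0 FPKM labelled VDR-WT (SD, n = 5 each), a log2 fold change of 0.42 (SE 0.047, adjusted p = 0.00066 from limma), the smallest p of the 32. The gene lies on chromosome 22 from 41621119 to 41664048, forward strand. Of its processed copies, XRCC6P2 was at 0.629 to 1.48 FPKM in the 10 libraries.

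XRCC5, which encodes Ku80, the other subunit, did not pass the test. It was 249, 234, 245, 266 and 255 FPKM in the libraries labelled VDR-KD, against 255, 298, 257, 287 and 239 FPKM in those labelled VDR-WT, and the groups overlapped. The log2 fold change was -0.095 (95% interval -0.24 to 0.050, adjusted p = 0.32 from limma), an interval that does not reach that of XRCC6 (0.32 to 0.53). The ratio of XRCC6 to XRCC5 was 1.93, 2.11, 1.95, 1.82 and 1.67 labelled VDR-KD, against 1.34, 1.25, 1.28, 1.28 and 1.44 labelled VDR-WT, with no overlap. This ratio was chosen after both values had been seen and has no test. PRKDC, the third part of the holoenzyme, had a log2 fold change of -0.13 (interval -0.27 to 0.017), with 104 to 139 FPKM labelled VDR-KD and 119 to 137 FPKM labelled VDR-WT.

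**Figure D3:**
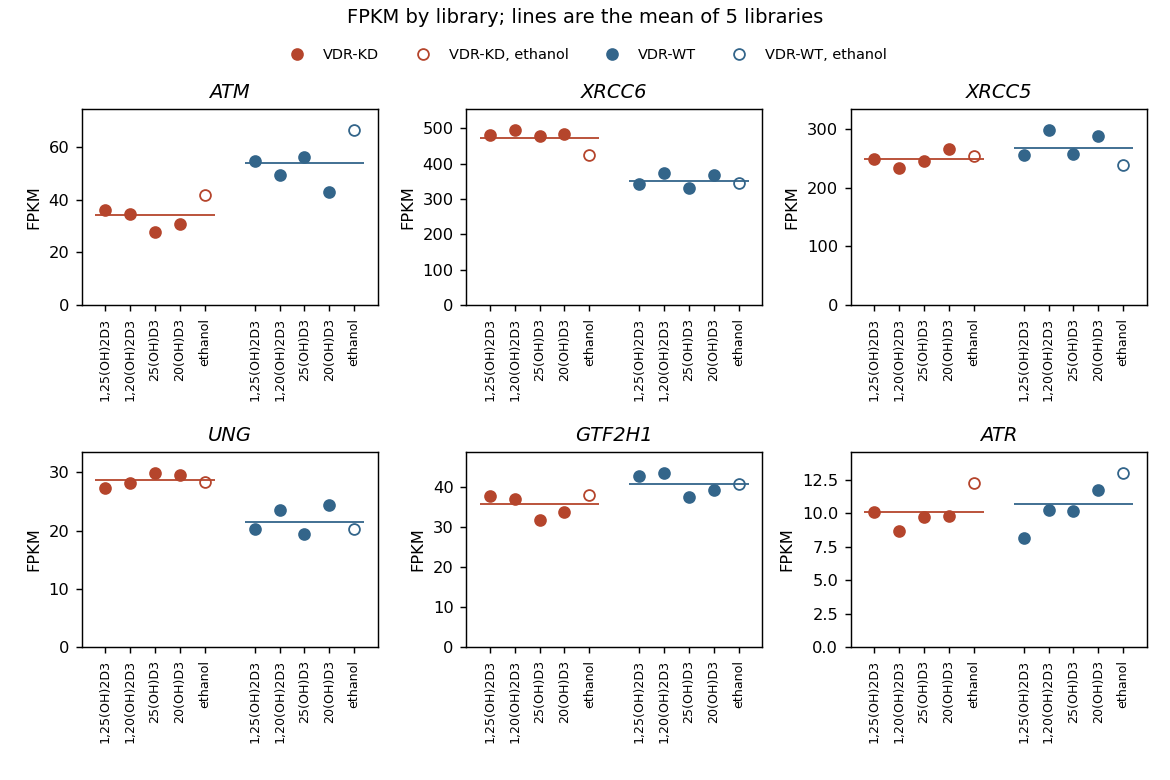
FPKM in each library of ATM, XRCC6, XRCC5, UNG, GTF2H1 and ATR, with the 5 libraries labelled VDR-KD left of the 5 labelled VDR-WT; open circles are ethanol and lines are the mean of 5 libraries. ATM labelled VDR-KD stays at or below 41.8 FPKM and ATM labelled VDR-WT at or above 43.0 FPKM, XRCC6 and UNG separate the other way, and XRCC5 and ATR overlap.

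The other genes of break repair did not pass the test. BRCA1, which steers ends towards repair from a sister copy, had the smallest difference of the pathway: 36.1, 37.9, 36.4, 38.9 and 48.8 FPKM labelled VDR-KD, against 40.9, 36.9, 45.4, 34.0 and 40.2 FPKM labelled VDR-WT (log2 fold change 0.0025, interval -0.21 to 0.21). BRCA2, which acts in repair from a sister copy, had a log2 fold change of -0.21 and a wide interval of -0.53 to 0.10. ATR, the kinase of stalled forks, was at -0.068 and LIG4 at -0.030. In both genotypes the ethanol library held the highest ATM and the highest ATR.

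Of the 8 genes of base excision repair, UNG was the 1 that passed the test. It encodes the glycosylase that removes uracil from DNA, in a nuclear and a mitochondrial form made from alternative starts. UNG was 27.3, 28.1, 29.9, 29.5 and 28.3 FPKM in the libraries labelled VDR-KD, against 20.2, 23.5, 19.4, 24.3 and 20.3 FPKM in those labelled VDR-WT. All 5 values labelled VDR-KD were above all 5 labelled VDR-WT, and they were closer together. The means were 28.6 ± 1.06 FPKM labelled VDR-KD and 21.5 ± 2.21 FPKM labelled VDR-WT (SD, n = 5 each), with a log2 fold change of 0.41 (SE 0.072, adjusted p = 0.0050 from limma). Over the alternatives the log2 fold change lay between 0.36 and 0.51 and the adjusted p between 0.0027 and 0.038.

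UNG lies on chromosome 12 from 109097574 to 109110992, forward strand. RefSeq (GRCh38.p14) gives it 2 starts, and the stretches before their first exons are shown because 1 of them holds both motifs that were found near starts of these genes and the other neither. They run 5′ to 3′, and capitals mark matches to the E2F letters TTTGCCGC or to the NF-Y box CCAAT.
UNG first start, chr12:109097347-109097573, forward: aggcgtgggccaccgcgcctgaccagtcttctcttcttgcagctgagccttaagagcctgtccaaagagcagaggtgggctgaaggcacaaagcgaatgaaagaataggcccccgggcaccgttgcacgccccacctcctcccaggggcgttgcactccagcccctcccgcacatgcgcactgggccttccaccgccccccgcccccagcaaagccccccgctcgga
UNG second start, chr12:109097922-109098117, forward: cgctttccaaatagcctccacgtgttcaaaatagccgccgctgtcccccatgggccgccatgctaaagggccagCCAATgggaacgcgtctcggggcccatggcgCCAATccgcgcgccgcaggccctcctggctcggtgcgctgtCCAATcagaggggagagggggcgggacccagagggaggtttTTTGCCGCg
The second stretch holds CCAAT at 3 places and TTTGCCGC once, 63 to 56 bases before the start. A further CCAAT, at the first start itself, lies past the end of the first stretch.

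The search covered windows from 250 bases before to 50 bases after each RefSeq start, on both strands, for 4 spellings of the E2F site (TTTCCCGC, TTTGGCGC, TTTCGCGC and TTTGCCGC), for CCAAT and for 2 direct copies, 3 bases apart, of the receptor motif, spelled AGGTCA, or GGGTCA, or AGTTCA, or GGTTCA, the classical form of a vitamin D response element. Windows were found for 30 of the 32 genes (49 windows). E2F letters stood in 7 of these 49 (14.3%), against 3.31% of all 35116 windows, and CCAAT in 21 (42.9%), against 34.6%. The 7 belong to UNG, XPC, LIG1, MSH6, XRCC6 and PMS2, the last with 2 overlapping windows. The direct repeat was in 0 of the 49, and in 0.074% of all windows. The 2 other genes without overlap between genotypes hold CCAAT or its complement ATTGG before a RefSeq start, as the 30-base stretches around it show. By the GENCODE coordinates given above, these stretches lie inside the genes, and the second of ATM also lies past its first RefSeq start.
ATM first start, chr11:108222867-108222896, forward: aagtcgctggccATTGGtggacatggcgca
ATM second start, chr11:108223257-108223286, forward: ctccccagaccgCCAATctcatgcacccct
XRCC6, chr22:41621257-41621286, forward: tagagggcgttgATTGGgaccgagtacagg
The E2F letters of XRCC6 stand after its RefSeq start, from base 43 to base 50, on the reverse strand. These are matches of letters only, and windows of 1 gene can overlap. CCAAT was not particular to the genes whose genotypes did not overlap. It also stood before starts of DDB2, ERCC1, OGG1 and APEX1, among others, whose values overlapped between genotypes. GTF2H1, which was called as well, held none of these motifs.

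The remaining genes of base excision repair did not pass the test. OGG1, which removes 8-oxoguanine, had a log2 fold change of 0.22 (interval -0.028 to 0.47), and LIG3, the ligase that works with XRCC1, was at -0.21 (interval -0.43 to 0.017). MUTYH, which removes adenine paired with 8-oxoguanine, the scaffold XRCC1, PARP1 and the replicative ligase LIG1 lay between 0.0077 and 0.073. APEX1 had the smallest difference of the pathway: 70.5, 75.8, 75.8, 83.97 and 75.6 FPKM labelled VDR-KD, against 69.1, 81.2, 80.8, 84.3 and 66.5 FPKM labelled VDR-WT. Its log2 fold change was 0.0034 (interval -0.13 to 0.13).

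Of the 13 genes of nucleotide excision repair, none rose and GTF2H1 fell. It encodes the p62 subunit of TFIIH, the complex whose helicases ERCC3 and ERCC2 open the DNA around a lesion. GTF2H1 was 37.8, 37.1, 31.9, 33.8 and 38.1 FPKM in the libraries labelled VDR-KD, against 42.7, 43.7, 37.5, 39.2 and 40.8 FPKM in those labelled VDR-WT. It was lower within all 5 treatments, but the groups overlapped, since both genotypes had their lowest values with 25(OH)D3. The means were 35.7 ± 2.73 FPKM labelled VDR-KD and 40.8 ± 2.50 FPKM labelled VDR-WT (SD, n = 5 each), with a log2 fold change of -0.19 (SE 0.053, adjusted p = 0.034 from limma). Its residual SD, 0.041, was the smallest of the 32, and the call was lost without the treatment block (adjusted p = 0.082), without the trend (0.068), without the 2 low heat shock libraries (0.18), and without any 1 treatment other than ethanol (0.075 to 0.085). The gene lies on chromosome 11 from 18322295 to 18367044 and has no annotated protein-coding neighbor that overlaps it.

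XPC, which recognizes helix distortion across the genome, had the largest log2 fold change of the pathway, -0.24, but did not pass the test (SE 0.13, adjusted p = 0.22 from limma). It was 8.45, 8.48, 10.9, 9.53 and 12.03 FPKM labelled VDR-KD, against 9.65, 13.8, 12.6, 12.4 and 9.86 FPKM labelled VDR-WT. The order turned round with ethanol, where the library labelled VDR-KD was the higher, and its residual SD of 0.25 was among the highest of the 32. ERCC5, the nuclease that cuts 3′ of a lesion, had the smallest difference: 33.9, 34.3, 39.2, 33.5 and 39.9 FPKM labelled VDR-KD, against 39.8, 31.1, 39.3, 31.0 and 38.6 FPKM labelled VDR-WT (log2 fold change 0.014). XPA, which verifies the lesion, was at 0.064 (interval -0.18 to 0.30). The lesion sensors DDB2 (0.031) and DDB1 (-0.062), XPC's partner RAD23B (-0.089), the helicase genes ERCC3 (-0.17) and ERCC2 (-0.057), and ERCC1 (-0.20) and ERCC4 (-0.032), which form the 5′ nuclease, did not pass. Neither did ERCC6 (0.028) and ERCC8 (0.022), which start repair at stalled RNA polymerase.

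Neither gene of mismatch repair passed the test. PMS2, an endonuclease subunit of the pathway, was 15.3, 16.4, 15.3, 15.2 and 15.4 FPKM labelled VDR-KD, against 13.3, 16.2, 13.6, 13.0 and 13.4 FPKM labelled VDR-WT. It was higher in all 5 treatments, with a log2 fold change of 0.16 (interval 0.0054 to 0.32, adjusted p = 0.13 from limma). Its value is uncertain, since reads can match both PMS2 and near-identical copies such as PMS2CL (7.47 to 14.1 FPKM). How such reads were handled is not known. MSH6, which takes part in recognizing base mismatches, was 43.1, 48.8, 48.4, 47.8 and 48.7 FPKM labelled VDR-KD, against 48.0, 49.4, 46.3, 48.8 and 46.1 FPKM labelled VDR-WT (log2 fold change -0.012, interval -0.14 to 0.12). POLH, the polymerase that copies past ultraviolet dimers and whose loss causes the variant form of xeroderma pigmentosum, was also higher in all 5 treatments, at 6.24 ± 0.635 FPKM labelled VDR-KD and 5.11 ± 0.403 FPKM labelled VDR-WT (SD, n = 5 each), but did not pass (log2 fold change 0.28, adjusted p = 0.11 from limma).

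Set side by side between the genotypes, the pathways had small medians of either sign. The median log2 fold change was -0.057 for nucleotide excision repair (0 higher, 1 lower of 13), 0.029 for base excision repair (1 higher, 0 lower of 8), 0.075 for mismatch repair (0 of 2 called) and -0.081 for double-strand break repair (1 higher, 1 lower of 8). At most 1 gene of a pathway was called in each direction, and the calls of break repair pointed in opposite directions. Without the 2 low heat shock libraries, the medians were -0.094 for nucleotide excision repair, -0.010 for base excision repair and -0.0029 for break repair.

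Other genes of the same pathways were counted from lists. Of 91, 12 rose and 3 fell in the libraries labelled VDR-KD, with a median log2 fold change of 0.0099, where 13.1% of all genes tested rose and 9.68% fell. The 30 with an unadjusted p under 0.05 stand beside 5359 of the 14689 genes tested. The share that rose among the 91 was thus close to that over all genes and the share that fell was lower, and the counts per list below, on few genes each, describe these lists only. Without the 2 low heat shock libraries, 5 rose and 2 fell, and with libraries rescaled to an equal median, 11 rose and 6 fell. Of 17 further genes of nucleotide excision repair, 0 were called (limma), with 5 at an unadjusted p under 0.05.

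In homologous recombination, 4 of 17 rose and 0 fell (13.1% and 9.68% of all genes tested, here and for the lists that follow). RAD51C, which acts in strand exchange, was 93.5, 92.7, 89.6, 93.5 and 85.4 FPKM labelled VDR-KD, against 52.6, 55.1, 59.6, 52.97 and 52.6 FPKM labelled VDR-WT, the largest difference among these lists (log2 fold change 0.74, SE 0.054, adjusted p = 0.00014 from limma). RAD50 rose by 0.44, while its partners in the complex that activates ATM did not pass, MRE11 at 0.11 and NBN at -0.031. XRCC2 rose by 0.31 and RAD54B, in a merged entry, by 0.29.

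In the Fanconi anemia list, which repairs crosslinks, 3 of 13 rose and 1 fell. FANCA, of the core ligase complex, rose by 0.73 (adjusted p = 0.00033 from limma) and the helicase gene BRIP1 by 0.69, FANCI rose by 0.22, and FANCD2, its partner, fell by 0.35. For mismatch repair 0 of 6 rose and 2 fell, PMS1 (log2 fold change -0.57, adjusted p = 0.0036 from limma) and MSH3 (-0.24). For base excision repair 3 of 16 rose: APEX2 (0.36), and, in merged entries, the flap nuclease FEN1 (0.33) and APTX (0.30). The end joining polymerase POLL rose by 0.50, as 1 of 6, and the checkpoint kinase CHEK2 by 0.34, as 1 of 10 damage signalling genes. Of 6 further translesion genes 0 were called (limma), with 3 at an unadjusted p under 0.05. The calls of RAD51C, RAD50, FANCA, BRIP1, PMS1 and FEN1 held under all 12 alternatives.

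Genes of 3 context lists are given beside these results, and their part in them was not tested. Of 18 replication and proliferation genes, 11 rose and 3 fell, where 13.1% of all genes tested rose and 9.68% fell, with a median log2 fold change of 0.32. Those higher included MCM5 of the replicative helicase (0.90), E2F1, a transcription factor of S phase entry (0.84), and the sliding clamp PCNA (0.40), while the mitotic kinase genes CDK1 (-0.30) and BUB1 (-0.31) fell. Without the 2 low heat shock libraries, 4 of the 18 rose and 0 fell. Of 17 p53 targets, 5 rose and 1 fell (median 0.070; 2 rose and 0 fell without those 2 libraries), with FDXR (1.32) and PPM1D (0.73) highest and SESN1 (-0.36) the 1 that fell. The members DDB2 and XPC, also known as p53 targets, did not pass the test. Of 10 heat shock genes, 3 rose (median 0.42; 4 rose without those libraries).

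The next comparisons ask whether each vitamin D compound changed repair gene expression against ethanol, with the genotypes as 2 libraries per treatment. None of the 32 genes passed the test with any compound (limma). With 1,25(OH)2D3, the hormonal form of vitamin D, 0 of 32 were called, where 1.99% of all genes tested were, and 3 had an unadjusted p under 0.05, where 16.5% of all genes did. With 1,20(OH)2D3, 0 were called (0.0204% of all genes) and 4 were under 0.05 unadjusted (12.5%). For 25(OH)D3 the counts were 0 called (0% of all genes) and 3 (8.03%), and for 20(OH)D3 0 called (0%) and 5 (14.2%). All 4 comparisons use the same 2 ethanol libraries. The widest bound of any 95% interval was 0.89, 0.88, 1.05 and 0.90 log2 units in these 4 comparisons, so a change of 2-fold lay outside the interval of every gene except BRCA2 with 25(OH)D3 (-0.56, interval -1.05 to -0.059).

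LIG3 had the largest log2 difference with 1,25(OH)2D3, 0.52 (interval 0.16 to 0.87, adjusted p = 0.15 from limma). It was 20.7 FPKM with 1,25(OH)2D3 against 12.6 FPKM with ethanol labelled VDR-KD, and 18.4 FPKM against 14.7 FPKM labelled VDR-WT. The value was highest with 1,25(OH)2D3 in both genotypes, and the log2 difference was 0.28 without the 1,25(OH)2D3 library labelled VDR-KD and 0.75 without that labelled VDR-WT. ERCC1 was at 0.35 (interval 0.045 to 0.66) and ATR at -0.47 (interval -0.83 to -0.11). XPA was at 0.22 (interval -0.16 to 0.60) and XPC at -0.27 (interval -0.74 to 0.20), so neither XP gene was shown to change.

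Among the 91 other repair genes, 2 were called with 1,25(OH)2D3, a share near the 1.99% of all genes tested. Both rose, and both belong to base excision repair. POLB, the polymerase that fills the single-base gap, was 44.0 FPKM with 1,25(OH)2D3 against 24.2 FPKM with ethanol labelled VDR-KD, and 43.5 FPKM against 23.4 FPKM labelled VDR-WT (log2 fold change 0.88, SE 0.12, adjusted p = 0.012 from limma). MBD4, a glycosylase for thymine and uracil opposite guanine in CpG, was 66.3 FPKM against 48.5 FPKM labelled VDR-KD, and 66.9 FPKM against 41.8 FPKM labelled VDR-WT (log2 fold change 0.56, SE 0.098, adjusted p = 0.027 from limma). POLB lost its call without the trend (adjusted p = 0.082) and MBD4 without it (0.13), with no filter on low values (0.060) and without the 2 low heat shock libraries (0.11). Leaving out either ethanol or either 1,25(OH)2D3 library gave adjusted p of 0.095 to 0.16 for POLB and 0.13 to 0.20 for MBD4, with log2 fold changes of 0.85 to 0.90 for POLB and 0.48 to 0.65 for MBD4. MBD4 also lost its call without either 25(OH)D3 library (0.069) or either 20(OH)D3 library (0.051 to 0.052). No other of the 91 was called with any compound against ethanol (limma). At an unadjusted p under 0.05 there were 9 of 91 with 1,25(OH)2D3 (16.5% of all genes tested) and 12 with 1,20(OH)2D3 (12.5%). With 25(OH)D3 there were 8 (8.03%) and with 20(OH)D3 15 (14.2%).

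**Figure D4:**
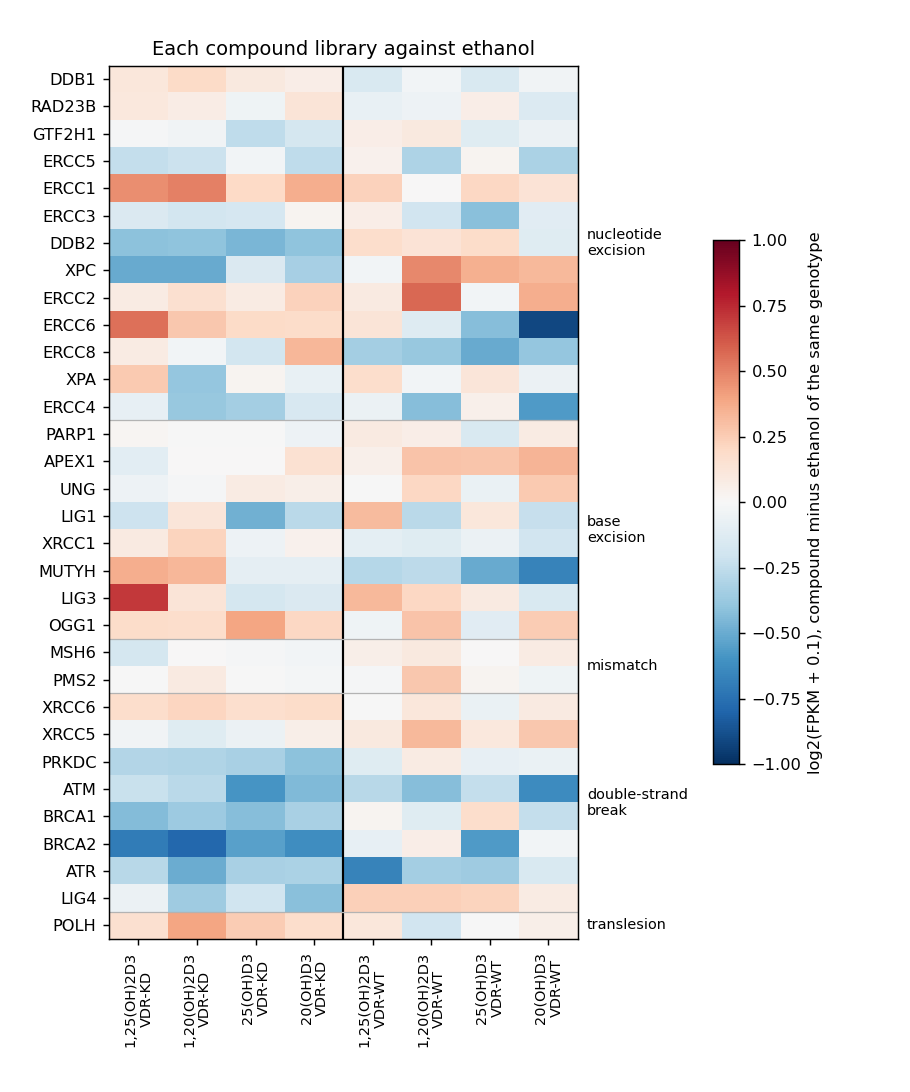
Log2 of FPKM plus 0.1, each compound library minus the ethanol library of the same genotype, for the 32 genes grouped by pathway; the 4 left columns are labelled VDR-KD and the 4 right ones VDR-WT, red is higher and blue lower than ethanol. ATM and ATR are blue in all 8 columns, ERCC1 is above 0 in all 8 though nearly white with 1,20(OH)2D3 labelled VDR-WT, and the break repair genes BRCA1, BRCA2 and PRKDC are blue in the 4 columns labelled VDR-KD.

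Genes of double-strand break repair had medians below ethanol, more so in the libraries labelled VDR-KD. Their median log2 difference was -0.20 with 1,25(OH)2D3, -0.18 with 1,20(OH)2D3, -0.16 with 25(OH)D3 and -0.24 with 20(OH)D3, where the medians over all genes tested lay between -0.0035 and 0.0039. The same medians were -0.016, -0.011, -0.025 and -0.042 for nucleotide excision repair, 0.045, 0.077, -0.049 and -0.032 for base excision repair, and -0.035, 0.12, 0.0035 and -0.0013 for the 2 mismatch repair genes. For break repair the median of each gene's mean over the 4 compounds was -0.34 labelled VDR-KD and -0.043 labelled VDR-WT. By that mean 7 of 8 genes lay below ethanol labelled VDR-KD, where 7177 of 14689 genes tested did. Labelled VDR-WT it was 5 of 8, where 7597 of 14689 did. XRCC6 averaged above ethanol in both genotypes (0.19 labelled VDR-KD, 0.034 labelled VDR-WT), and XRCC5 (0.20) and LIG4 (0.19) did so labelled VDR-WT. BRCA1, BRCA2 and PRKDC were highest in the ethanol library labelled VDR-KD, at 48.8, 20.4 and 139 FPKM, above every other value in that genotype (at most 38.9, 13.99 and 113 FPKM). The 4 differences of each genotype share 1 ethanol library, so the lower median labelled VDR-KD rests on that library. Whether the pathway medians differed between genotypes was not tested. In the test per gene of that difference over the 4 compounds, given below, no break repair gene was under 0.05 unadjusted.

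ATM and ATR did not rest on 1 ethanol library. ATM averaged -0.38 labelled VDR-KD and -0.39 labelled VDR-WT over the 4 compounds, and ATR -0.36 and -0.38. ATR was 10.1, 8.65, 9.77 and 9.84 FPKM with the compounds against 12.3 FPKM with ethanol labelled VDR-KD, and 8.17, 10.3, 10.2 and 11.7 FPKM against 13.0 FPKM labelled VDR-WT. Both genes were below ethanol in all 8 compound libraries, as 2 of 32, where 7.68% of all genes tested were. ERCC1, with 28.2, 28.9, 23.4 and 26.2 FPKM against 20.4 FPKM labelled VDR-KD and 31.4, 26.71, 30.9 and 29.3 FPKM against 26.67 FPKM labelled VDR-WT, was above ethanol in all 8, as 1 of 32, where 6.49% of all genes tested were. Neither count stood above the share over all genes tested. A comparison of all 4 compounds with ethanol was added after these values had been seen. It called 0 of 32 (0.0136% of all genes), with 5 under 0.05 unadjusted (14.6%), and the log2 difference was -0.39 for ATM (interval -0.62 to -0.15, adjusted p = 0.19 from limma), -0.37 for ATR (-0.65 to -0.084) and 0.26 for ERCC1 (0.022 to 0.51). Each value rests on 2 ethanol libraries that all 8 ratios share.

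Compounds that differ by 1 hydroxyl group were then compared at the same dose and time, in 4 pairs, and no repair gene passed the test in any pair (limma). Moving the side chain hydroxyl, 1,25(OH)2D3 against 1,20(OH)2D3 called 0 of 32 (0.259% of all genes), with 1 under 0.05 unadjusted (9.99%). That 1 was XPA, with 6.56 FPKM against 4.16 FPKM labelled VDR-KD and 5.59 FPKM against 4.85 FPKM labelled VDR-WT, a log2 difference of 0.42 (interval 0.044 to 0.80, adjusted p = 0.44 from limma). The same move without the hydroxyl at position 1, 25(OH)D3 against 20(OH)D3, called 0 (0%), with 1 unadjusted (6.6%), ERCC5 at 0.29 (interval 0.037 to 0.53).

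Adding the hydroxyl at position 1 gave the other pairs. Between 1,25(OH)2D3 and 25(OH)D3, 0 of 32 were called, where 3.06% of all genes were, and 2 were under 0.05 unadjusted (16.1%), LIG3 at 0.56 (interval 0.21 to 0.91, adjusted p = 0.11 from limma) and GTF2H1 at 0.21 (interval 0.021 to 0.41). LIG3 was 20.7 FPKM with 1,25(OH)2D3 against 11.1 FPKM with 25(OH)D3 labelled VDR-KD, and 18.4 FPKM against 15.6 FPKM labelled VDR-WT. POLB and MBD4 were higher in this pair too, by 0.65 and 0.47 (limma, adjusted p = 0.029 and 0.045). Between 1,20(OH)2D3 and 20(OH)D3, 0 were called (0.034% of all genes), with 1 unadjusted (7.31%), MUTYH at 0.41 (interval 0.045 to 0.78). In all 4 pairs the intervals of all 32 genes lay within 1 log2 unit of 0. They were often wide: the widest bound of each pair, in every case that of ERCC6, was between 0.79 and 1.00, so smaller differences between the compounds remain possible.

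The last comparison asks whether 1,25(OH)2D3, set against the other 4 treatments, acted unequally in the 2 genotypes. It called 0 of 32, where 0% of all genes were, and 0 were under 0.05 unadjusted, where 3.06% were (limma). The highest estimate was that of LIG3, 0.47 (interval -0.053 to 1.00), and the lowest that of LIG1, -0.46. Intervals reached as far as 1.2 log2 units from 0, and 26 of 32 stayed within 1. For the 4 compounds together, a test added after the values had been seen, 0 of 32 were called (0.00681% of all genes) and 1 was under 0.05 unadjusted (4.16%). That was DDB2, a lesion sensor and p53 target, at -0.51 (interval -0.94 to -0.081): it was 14.5, 14.6, 14.1 and 14.6 FPKM against 19.3 FPKM with ethanol labelled VDR-KD, and 16.1, 15.6, 16.1 and 13.1 FPKM against 14.2 FPKM labelled VDR-WT.

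After genotype and treatment were taken out, the median residual SD was 0.145 log2 units for the 32 genes, against 0.171 over all genes tested. Over genes in a similar range of mean FPKM it was 0.132, so the 32 genes varied somewhat more than genes of like level. GTF2H1 (0.041), PMS2 (0.057) and XRCC6 (0.062) varied least, and LIG1 (0.29), ERCC6 (0.28) and BRCA2 (0.28) most. In a bulk library, fewer cells that express a gene and less RNA per cell cannot be told apart.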

How the data were processed

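Per the labels, RNA from WM164 cells was sequenced on an Illumina HiSeq. The authors made the FPKM values before they deposited them: the submitters' processing notes name STAR 2.7.1a, Cufflinks 2.2.1, Cuffdiff and GRCh38. The gene annotation, the strand setting, the handling of reads with several matches and the read number were not given in the sources used. Low values were not whole multiples of 1 step (4 of 3764 entries below 1 FPKM, within 2%), so depth is unknown, and no counting interval is given.

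The 14689 genes that averaged 0.5 FPKM or more were tested on log2 of FPKM plus 0.1 with limma 3.58.1 in R 4.3.3 (lmFit, eBayes with trend, Benjamini-Hochberg adjustment, threshold 0.05). Adding 0.1 understates changes of low genes. The libraries labelled VDR-KD were set against those labelled VDR-WT with treatment as a block, since each treatment was given to both genotypes (correlations of same-treatment deviations 0.014 to 0.25). Compounds were compared with genotype as a term. Each fit used all 10 libraries and left 4 residual degrees of freedom, the interactions 6 (1,25(OH)2D3 against the other 4 treatments, or the 4 compounds against ethanol). Numbers and figures were made in Python 3.11.15 with pandas 2.3.3 and matplotlib 3.10.9. The fit between genotypes, but not the other comparisons, was tested on simulated data.

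The members, the lists and the tests were chosen with earlier results of these data known. All 32 members are accounted for. Values per library go to each called member and to the member with the largest and the smallest difference between genotypes in each pathway; of the other repair genes, up to 4 called ones are named per list. Others named (NPAT, ATR, LIG3, ERCC1 and DDB2 among them) were picked with their values in view. As alternatives, another constant, filter, scaling, trend, block or set of libraries was used. A label reading 2(OH)D3 was taken as 20(OH)D3, as in that library's title. Sequences come from RefSeq (GRCh38.p14), coordinates of genes from GENCODE 29.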

Additional observations from a re-analysis of the deposited data

Results flagged for a closer look

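Among the 64 sets of 5 libraries (32 genes in each genotype), 11 had 1 library far from the other 4 by Dixon's test at 95%, where 1 in 20 independent sets would give 3.2 of 64. Of these, 5 were the ethanol library labelled VDR-KD: DDB2 (19.3 FPKM, others 14.1 to 14.6), BRCA1 (48.8 FPKM, others 36.1 to 38.9), BRCA2 (20.4 FPKM, others 11.8 to 13.99) and PRKDC (139 FPKM, others 104 to 113) stood high in it, and XRCC6 (425 FPKM, others 478 to 494) stood low. The sets are not independent, since all 32 genes share the same libraries, and the 5 values of a set are different treatments. Such outliers were not counted over all genes tested, so the 11 cannot be read as particular to repair genes.

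With 1,25(OH)2D3 labelled VDR-KD, LIG3 stood high (20.7 FPKM, others 11.1 to 13.8) and MSH6 low (43.1 FPKM, others 47.8 to 48.8). PMS2 stood high with 1,20(OH)2D3 in both genotypes, at 16.4 FPKM labelled VDR-KD (others 15.2 to 15.4) and 16.2 FPKM labelled VDR-WT (others 13.0 to 13.6). Labelled VDR-WT, BRCA2 was low with 25(OH)D3 (12.01 FPKM, others 16.8 to 18.7) and ERCC8 high with ethanol (6.50 FPKM, others 4.56 to 5.10).

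For 2 genes the 4 compounds all lay on one side of ethanol in one genotype and on the opposite side in the other. The 4 compounds of a genotype share 1 ethanol library. How many of all genes tested had this pattern was not counted, so the 2 cannot be judged against that share. DDB1 averaged 0.12 above ethanol labelled VDR-KD and -0.089 labelled VDR-WT (log2), a difference of 0.21, and LIG4 averaged -0.26 labelled VDR-KD and 0.19 labelled VDR-WT, a difference of -0.45. Neither passed the test of the difference (adjusted p of 1.00 for both, limma).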

How the results depend on the processing

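UNG, ATM and XRCC6 were called between the genotypes under all 12 alternatives, and GTF2H1 under 5 of them, so the number of members called was 4 or 3. The fit without the replicate block, that is, without the treatment pairs, called 3. Calls over all genes numbered 3347, against 978 without the 2 low heat shock libraries, 2122 without 1,25(OH)2D3 (2122 to 2466 leaving out any 1 treatment), and 2543 to 3434 under the other settings that kept all libraries; fewer libraries leave fewer degrees of freedom. For the compounds, the pairs and the interactions, 0 members were called under any alternative. Directions that turned all belong to members without a call, and the cause was not tested. With libraries rescaled, ERCC5 was at -0.012, ERCC8 -0.0040, MUTYH -0.018, APEX1 -0.023 and BRCA1 -0.024. Without the 2 low heat shock libraries, ERCC2 was at 0.065, ERCC5 -0.062, ERCC6 -0.13, ERCC8 -0.094, MUTYH -0.085, XRCC1 -0.061, LIG1 -0.15, BRCA1 -0.073, ATR 0.053 and LIG4 0.093. Leaving out 1 treatment pair in turn gave ranges of -0.071 to 0.089 for DDB2, -0.042 to 0.029 for APEX1, -0.067 to 0.083 for BRCA1, -0.042 to 0.12 for MUTYH, -0.034 to 0.025 for MSH6, -0.13 to 0.068 for ERCC4, -0.12 to 0.15 for ERCC6, -0.014 to 0.057 for PARP1, -0.11 to 0.023 for ERCC2, -0.019 to 0.075 for ERCC5, -0.018 to 0.067 for XRCC1, -0.062 to 0.18 for LIG1, -0.12 to 0.028 for LIG4 and -0.067 to 0.11 for ERCC8. Depth is unknown, and over the members the median distance from 0 of the farther interval bound was 0.30 log2 units between genotypes.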
